A study of Mus musculus with 18 samples.

Results

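The microRNA miR-335 has 2 arms in the table of values, mmu-miR-335-3p and mmu-miR-335-5p, out of 1251 mouse microRNA entries. Both were chosen by their log2 levels in the sample types compared here, where earlier results had shown miR-335 to be high in carcinoma. Those levels are therefore given as a description, without a test. Small RNA was sequenced from 18 samples of 6 female littermate SKH-1E Hairless mice, numbered 2, 3, 7, 8, 9 and 10. All mice received chronic ultraviolet radiation from solar simulators, and each gave 3 samples, namely chronically irradiated nonlesional skin (CHR), a papilloma (PAP) and a cutaneous squamous cell carcinoma (cuSCC). Unirradiated skin was not analysed here, so that the controls had the same exposure as the tumours, and the study describes the lesions as estimated from histology to be largely, but not wholly, tumour cells. The 3p arm was at the lowest value of the table in nearly all CHR samples and well above it in most PAP and all cuSCC samples, whereas the 5p arm was at the lowest value in all but 2 of the 18 libraries.

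A microRNA hairpin is cut by Drosha and Dicer into a short duplex, of which one strand is loaded into Argonaute and pairs, mainly through its seed, with target messenger RNAs, while the other strand is usually degraded. The arms of one hairpin have different seeds and so different targets. The miR-335 hairpin sits within an intron of Mest, an imprinted gene expressed from the paternal chromosome in embryonic and mesenchymal tissues, and miR-335 is best known as a suppressor of metastasis in breast cancer. The 5p arm is the one first called miR-335, and the 3p arm was formerly written miR-335*.

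The mature arms are shown because the comparison turns on which of them was measured. They were taken from RefSeq on GRCm38.p6 and are written 5′ to 3′, with the seed, bases 2 to 8, in capitals.
miR-335-5p: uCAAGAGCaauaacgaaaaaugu
miR-335-3p: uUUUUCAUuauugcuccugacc
The 5p arm lies at chr6:30741314-30741336 and the 3p arm at chr6:30741354-30741375, both on the plus strand. They are 23 and 22 bases long, and their GC contents are 30.4% and 36.4%. Neither seed is shared by another of the 1679 mature mouse microRNA names in the RefSeq set. The nearest other mature sequence differed by 8 single-base edits from the 5p arm and by 6 from the 3p arm (miR-7675-3p), so that no other full-length sequence of that set was a close copy. Entries without a RefSeq sequence were not compared, and the sharing of shorter reads was not tested.

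Their hairpin, Mir335, spans 98 bases at chr6:30741299-30741396. It is written out here with both arms in capitals, the 5p arm from base 16 to 38 and the 3p arm from base 56 to 77.
Mir335: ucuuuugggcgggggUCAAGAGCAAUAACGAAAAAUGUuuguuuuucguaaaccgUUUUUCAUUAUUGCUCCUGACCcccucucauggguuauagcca
Folded with RNAfold, 18 base pairs joined the arms. In the gene annotation of the same build, Mest runs from 30723547 to 30748465 on the plus strand of chromosome 6 and has 11 transcripts, 7 of which span the hairpin. In each of the 7 the hairpin is intronic, in the intron from 30740825 to 30742140, with 474 bases to the exon before it and 744 to the exon after it. In 0 transcripts is it in an exon.

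Values are log2 ppm of the usable reads after quantile normalization, and so reflect the order of microRNAs in a library more than shares of its reads. Entries at 3.32, the lowest value of the table and equal to 10 ppm, were taken as undetected. The depth behind single libraries is unknown, and libraries differed in how low they reached. Their lowest detected value was between 3.39 and 5.77 in CHR, 3.71 and 6.83 in PAP and 3.32 and 4.50 in cuSCC, with 200 to 328, 163 to 281 and 236 to 365 entries detected. A value of 3.32 in a library that reached no lower than 6.83 allows any level up to about that height. Centred on the mean of each tested microRNA, 5 libraries correlated best with a library of another type. They were the PAP of mice 2, 3, 9 and 10 and the cuSCC of mouse 10, which was closest to the PAP of its own mouse (r = 0.63). No pair of libraries was identical, the highest r between libraries being 0.975 across tested microRNAs.

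The first question was whether miR-335-3p differed between irradiated skin and lesions. In CHR, it was undetected in mice 2, 3, 7, 8 and 9 and stood at 3.46 in mouse 10, just above the lowest value. In PAP, it was at 5.77 in mouse 2, 7.0 in mouse 3, 4.16 in mouse 8, 6.17 in mouse 9 and 7.72 in mouse 10, and undetected in mouse 7. In cuSCC, it was at 5.87 in mouse 2, 7.62 in mouse 3, 7.27 in mouse 7, 6.26 in mouse 8, 6.20 in mouse 9 and 7.15 in mouse 10. All 6 cuSCC and 5 of the 6 PAP samples were thus above every CHR sample, and the single highest value of all belonged to a papilloma. That papilloma, of mouse 10, came from the library with the poorest reach, with 163 entries detected and none under 6.83. By sample type, CHR averaged 3.34 ± 0.05 (SD, n = 6), PAP 5.69 ± 1.67 and cuSCC 6.73 ± 0.71.

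**Figure D1:**
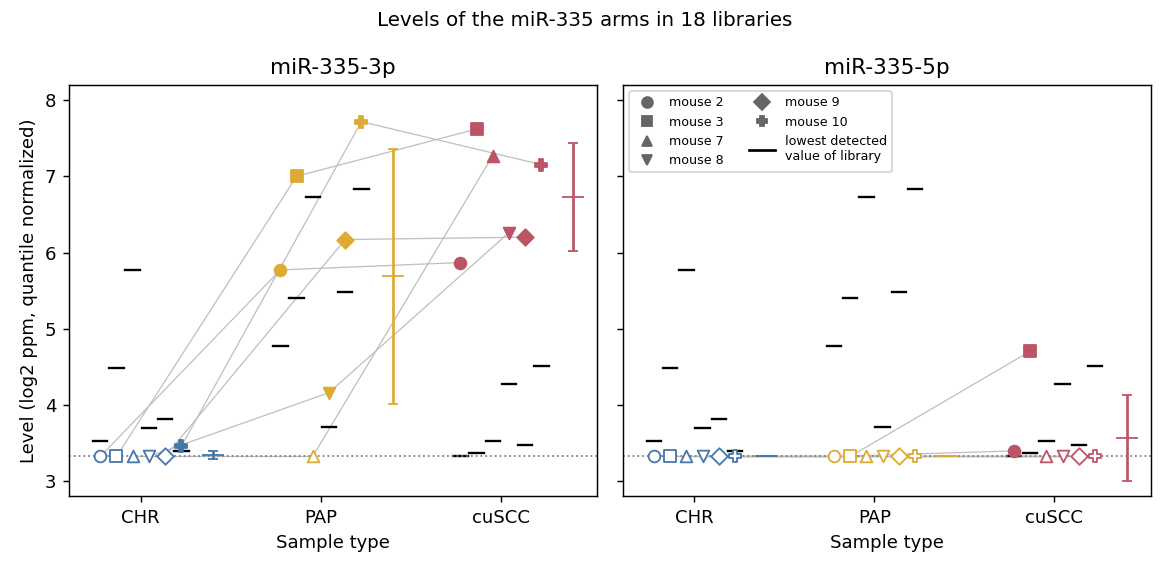
Levels of miR-335-3p (left) and miR-335-5p (right) on the log2 ppm scale, by sample type and mouse. Symbols are single libraries, filled where the arm was detected, grey lines join samples of a mouse, black ticks are the lowest detected value of each library, the dotted line is the lowest value of the table, and bars are the mean ± SD of 6 libraries. The 3p arm is at or next to the dotted line in every CHR library and between 5.87 and 7.62 in cuSCC, while the 5p arm leaves it in 2 cuSCC libraries.

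The mean of cuSCC stood 3.39 above that of CHR on the log2 scale (standard error 0.29). With miR-335-3p detected in 1 of 6 CHR samples, standard errors of differences from CHR hold almost only the spread of the lesions. Within mice, cuSCC was higher than CHR in 6 of 6, by 2.55 to 4.30 with a median of 3.32. PAP stood 2.35 above CHR (standard error 0.68), being higher in 5 mice, by 0.84 to 4.26, and equal in mouse 7, where neither sample had detectable miR-335-3p. With each library centred on the median of its detected entries, PAP was 1.15 above CHR. That median depends on how many entries were detected. With values under 100 ppm raised to 100 ppm, PAP was 0.24 and cuSCC 0.35 above CHR. The difference between cuSCC and PAP was 1.04 (standard error 0.74), or 2.71 with libraries centred and 0.11 with the 100 ppm minimum, and the ranges overlapped, with 0 of 6 cuSCC samples above every PAP sample. Within mice this last difference ranged from -0.56 in mouse 10 to 3.95 in mouse 7. It was 0.03 in mouse 9 and 0.10 in mouse 2, 0.62 in mouse 3 and 2.10 in mouse 8. The 3.95 of mouse 7 rests on an undetected papilloma. With that papilloma placed at the lowest detected value of its library, 6.72, the difference was 0.55. Where both lesions of a mouse were detected, they thus differed by -0.56 to 2.10. Without mouse 7 the mean difference was 0.46, and without mouse 10, whose cuSCC resembled its papilloma, it was 1.36. Without mouse 10, cuSCC stood 3.32 above CHR and PAP 1.96 above it.

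How far the undetected values carry these differences was examined by placing them at the lowest detected value of their own library, close to the highest level they could have had. Bounded this way, the difference between cuSCC and CHR was positive in 6 of 6 mice and lay between 1.501 and 3.70, and its mean fell from 3.39 to 2.61. Between PAP and CHR it was positive in all 5 mice with a detected value in PAP, between 0.47 and 4.26, while mouse 7, undetected in both, gave no such bound. The papilloma of mouse 7, the exception among the lesions, had no detected value under 6.72, so a level like that of most other papillomas could not have been seen there. By contrast, the papilloma of mouse 8, the lowest of those detected, came from a library that reached down to 3.71. Bounded, cuSCC and PAP differed by 0.47 on average. Above 6.83, a level at which every library could have shown it, miR-335-3p was found in 0 CHR, 2 PAP and 3 cuSCC samples.

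The level of miR-335-3p was modest. In cuSCC it ranked between 138 and 191 among the 236 to 365 entries detected in its library, and in the 5 papillomas that showed it between 132 and 251 of 163 to 281. In the CHR of mouse 10 it ranked 303 of 328. Its pattern of detection was compared with other entries as a description, with cut-offs taken from its own counts, so that few matches carry no weight. Of the 107 entries detected in at most 1 CHR library and at least 1 lesion, 3 were detected in every cuSCC, namely miR-6240, miR-335-3p and miR-1983. Of these miR-6240 and miR-335-3p were also seen in at least 5 PAP libraries. The reverse pattern, detection in every CHR and at most 1 cuSCC library, was found for 0 entries. CHR and cuSCC libraries differed in reach, with lowest detected values up to 5.77 and 4.50, and its part in these counts was not tested. Among the 3 entries detected in every cuSCC, miR-6240 was highest in PAP (11.72 on average against 7.51 in cuSCC), whereas miR-335-3p was highest on average in cuSCC.

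miR-335-5p was seldom detected. It was undetected in all 6 CHR and all 6 PAP samples and in the cuSCC of mice 7, 8, 9 and 10. The cuSCC of mouse 2 held it at 3.40 and that of mouse 3 at 4.70, which ranked 326 of 365 and 231 of 339. These libraries had the most detected entries of all and the lowest limits, at 3.32 and 3.36. On average it was 3.56 ± 0.56 (SD, n = 6) in cuSCC, 0.24 above both other types (standard error 0.23), and 0.01 above them without mouse 3. Detected in 2 of 18 libraries, it was not among the 293 entries with the 6 detections needed to enter the tests across all microRNAs. Whether its level differed between the sample types could not be resolved at the reach of these libraries.

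Within libraries, the 3p arm exceeded the 5p arm by 3.17 ± 0.59 (SD, n = 6) on the log2 scale in cuSCC, with values from 2.47 to 3.95. Even with the 5p arm placed at its highest possible level, the limit of its library, the 3p arm was higher by 1.99 to 3.75, or 3.97- to 13.4-fold, in the 6 cuSCC samples. In the 5 papillomas with detectable miR-335-3p, the same bound gave 0.45 to 1.60. An excess of the 3p arm was not unusual. Among 175 hairpins with both arms in the table and at least 1 arm tested, the 3p arm was the higher in cuSCC in 86. In 52 of the 175 the 3p arm was tested and the 5p arm was not, as for miR-335, against 56 with the reverse and 67 with both. Ordered by the excess of 3p over 5p in cuSCC, miR-335 was at place 46.

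MicroRNA libraries recover sequences unevenly, and both arms are poor in G and C. Of the 241 tested entries with a RefSeq mature sequence, 1 had a lower GC content than miR-335-5p and 6 a lower one than miR-335-3p, and the median was 50%. Entries of such composition were seldom detected. Of 25 entries with a GC content at or below that of miR-335-5p, 1 was tested and 22 were never detected, and of the 134 at or below that of miR-335-3p, 13 (9.70%) were tested, compared with 24.1% of all 1001 entries with a sequence. Among tested entries, the difference between cuSCC and CHR also moved with GC content. The median difference was 0.82 for the 58 entries with 35 to under 45% GC, where miR-335-3p belongs, 0.13 for the 107 with 45 to under 55% and -0.81 for the 70 with 55% or more, and 0.98 for the 6 under 35%. In papillomas against CHR the medians were 0.13, -0.32 and -0.39 in the same order, and 0.46 under 35%. miR-335-3p stood above the median of its class in both comparisons, which is a description only, as it was chosen for its levels. GC trends were also removed, meaning each library's departure from the mean trend against GC content, while the mean trend itself was kept. After this, miR-335-3p differed by 2.49 for cuSCC minus CHR, by 1.98 for PAP minus CHR and by 0.51 for cuSCC minus PAP. The part of base composition in the absence of miR-335-5p was not tested.

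**Figure D2:**
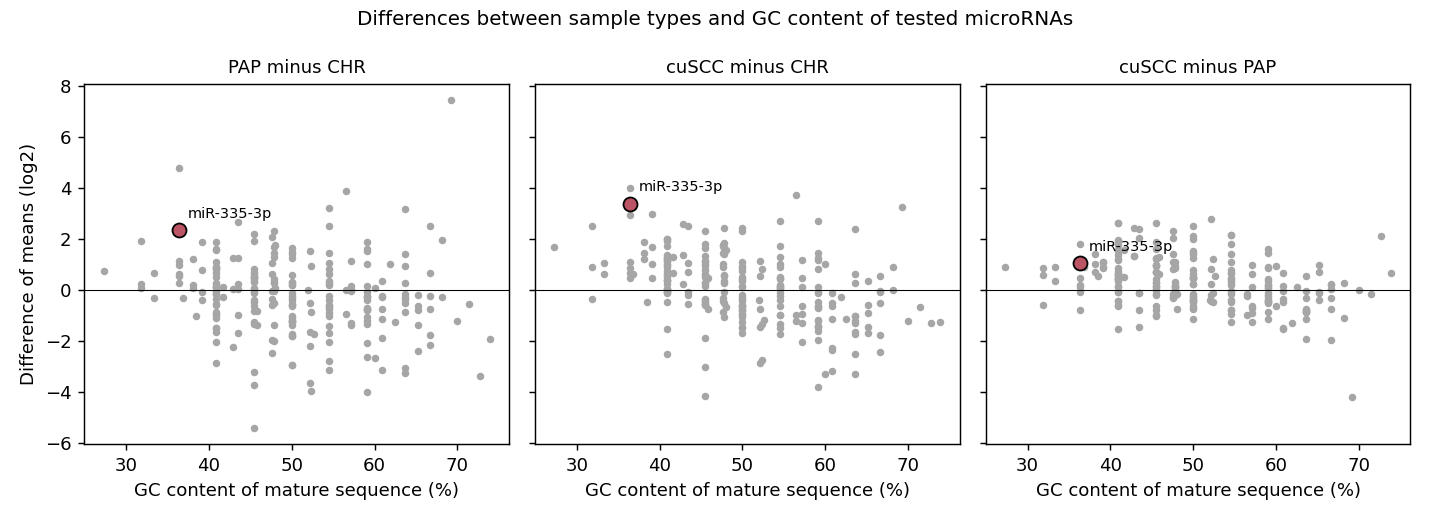
Difference of mean levels (log2) between sample types against the GC content of the mature sequence (%), for the 241 tested microRNAs with a RefSeq sequence, each a grey point. miR-335-3p (red) has a GC content of 36.4% and lies at 2.35, 3.39 and 1.04 in the 3 panels, at the low-GC side where differences between cuSCC and CHR were mostly above 0.

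Several other microRNAs followed miR-335-3p across the 18 libraries, by Pearson correlation among the 293 tested entries. The closest were miR-186-5p (r = 0.860), miR-451a (r = 0.816), miR-20a-5p (r = 0.806), miR-26b-5p (r = 0.770) and miR-138-5p (r = 0.763). Each r is a description over libraries that share mouse, type and base composition, and 6 of the 18 values of miR-335-3p are the lowest value. With any 1 mouse left out, r stayed between 0.827 and 0.908 for miR-186-5p and between 0.683 and 0.826 for miR-26b-5p. By rank correlation, 3 of the 5 were again among the closest, with miR-98-5p and miR-421-3p in place of the other 2.

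These 5 microRNAs differed in abundance. miR-186-5p, detected in every library, ranged from 10.68 to 11.32 in CHR with a median of 11.05, from 11.32 to 12.79 in PAP and from 11.82 to 12.72 in cuSCC, so that no lesion lay below the highest CHR sample. miR-20a-5p, a member of the proliferation-associated miR-17~92 cluster, was nearest in level, detected in 2 CHR, 4 PAP and 6 cuSCC samples, with means of 3.47, 5.37 and 6.47. miR-451a, which is abundant in red blood cells, ran from 3.32 to 7.44 in CHR, from 7.76 to 12.50 in papillomas and from 8.05 to 12.27 in carcinomas. Like miR-335-3p, it was highest in the papilloma of mouse 10. miR-138-5p was at 4.69 on average in CHR against 8.59 in PAP and 8.42 in cuSCC, and miR-26b-5p at 9.37, 10.04 and 10.41.

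**Figure D3:**
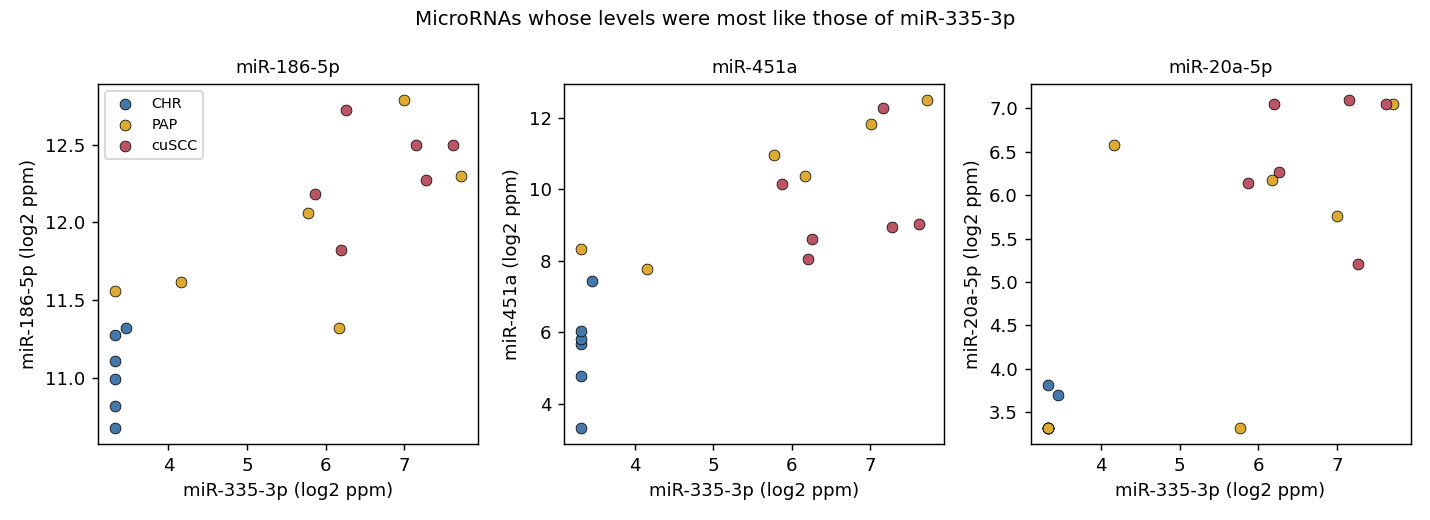
Levels (log2 ppm) of miR-186-5p, miR-451a and miR-20a-5p against miR-335-3p in the 18 libraries, coloured by sample type. CHR libraries sit at the lower left in all panels, and cuSCC libraries lie between 5.87 and 7.62 on the horizontal axis and PAP libraries between 3.32 and 7.72, with 1 papilloma at the lowest value beside the CHR libraries.

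After the mean of each sample type was subtracted, which leaves only the differences among samples of a type, the closest were miR-5617-3p (r = 0.758), miR-451a (r = 0.647), miR-3107-3p and miR-486-3p (r = 0.634 each) and miR-126-5p (r = 0.604). Only miR-451a was in both sets. For miR-335-3p the differences left lie mostly among papillomas (SD 1.67, beside 0.71 in cuSCC and 0.05 in CHR), 1 of them undetected. Its lowest and highest detected papilloma values came from the PAP libraries with the lowest and highest limits, 3.71 and 6.83. The part of library reach in these r values was not tested. miR-486-3p and miR-3107-3p had nearly the same values and come from one locus. Their average levels moved opposite to those of miR-335-3p between types, miR-486-3p from 8.13 in CHR to 5.07 in cuSCC. For miR-335-5p, the closest was miR-145a-3p (r = 0.822), followed by miR-467d-5p (0.646), miR-224-5p (0.6253), and miR-101a-3p and miR-101c (0.621 each), which had the same values. These rest on the 2 libraries in which the 5p arm was detected.

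The lesions also differed in markers of the cells they held, which bears on miR-335-3p because fewer cells of a type and less RNA per cell cannot be told apart in bulk tissue. For comparison, limma at an adjusted p under 0.05 called 32.4% of the 293 tested microRNAs in the contrast of PAP with CHR (14% higher and 18.4% lower), 42.3% for cuSCC with CHR (20.1% higher and 22.2% lower) and 11.6% for cuSCC with PAP (9.22% higher and 2.39% lower). Of the 9 epithelial markers, all detected, 5 rose in PAP and 4 in cuSCC against CHR, and their summed level on the log2 scale covered 17.50 to 18.51 in CHR, 17.77 to 18.56 in papillomas and 17.50 to 18.55 in carcinomas. With libraries centred, 0 of the 9 passed in PAP and 3 in cuSCC. The epithelial sum was close to miR-205-5p alone, which averaged 17.87 in CHR, 18.22 in PAP and 18.08 in cuSCC. Of 9 tested fibroblast and smooth muscle arms, 5 fell in PAP, 1 fell in cuSCC against CHR, and 4 were higher in cuSCC than in PAP, but 0 of these without the libraries that reached no lower than 50 ppm. Their sum covered 14.39 to 15.12 in CHR, 11.12 to 14.18 in papillomas and 12.69 to 15.70 in carcinomas, with miR-143-5p, miR-145a-3p and miR-199b-5p undetected in every PAP library and miR-143-5p in every cuSCC library. Of the 3 tested skeletal muscle arms, 3 fell in PAP and 1 in cuSCC against CHR, and 3 were higher in cuSCC than in PAP. In PAP, miR-1a-3p, miR-133b-3p and miR-206-3p were undetected throughout, and miR-1a-3p was also undetected in CHR. The CHR averages of miR-133b-3p and miR-206-3p, 6.26 and 6.54, lay below the limits of the PAP libraries of mice 7 and 10 (6.72 and 6.83). Such levels could not have been seen in those libraries. The muscle sum was 15.44 to 15.98 in CHR, at most 12.44 in papillomas and 5.16 to 14.24 in carcinomas.

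Vessel and blood markers moved as well. Both arms of miR-126, a microRNA of endothelium, rose in cuSCC against CHR and against PAP and did not pass in PAP against CHR, with sums of 7.84 to 9.35 in CHR, 7.53 to 9.004 in papillomas and 9.26 to 11.17 in carcinomas. Of 4 tested leukocyte arms, 2 fell in PAP, and in cuSCC 1 rose and 2 fell. Their sum was 13.12 to 14.28 in CHR, 8.95 to 11.82 in papillomas and 11.13 to 12.59 in carcinomas, and miR-155-5p was undetected in all 18 libraries and miR-142-3p in every PAP library. Of 3 tested erythroid arms, miR-451a rose in both lesions and the miR-486 arms fell in cuSCC against CHR. Between cuSCC and PAP, 1 leukocyte arm was higher, and 1 erythroid and 1 epithelial arm were lower. Erythroid sums were 16.70 to 17.85, 16.70 to 18.24 and 14.87 to 17.87 in the 3 types. They were close to miR-486-5p alone, at 17.12, 17.67 and 15.84 on average, while miR-451a averaged 5.51, 10.29 and 9.50. miR-144-3p was undetected in all 3 types, and miR-144-5p in CHR and PAP. The part of these cells in the levels of miR-335-3p was not tested.

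The next question was whether other microRNAs of the region moved. Of 13 arms that RefSeq places within 5 Mb of Mir335 on chromosome 6, 5 were tested, and 6 were never detected. Of the 5, 3 rose in PAP against CHR, beside the 14% of all tested microRNAs, 2 rose in cuSCC against CHR (20.1% of all) and 1 was higher in cuSCC than in PAP (9.22% of all). Among these 5, 0 fell. With libraries centred, 0 rose and 1 fell in PAP, and 1 rose in cuSCC. Their median differences were 1.08, 1.03 and -0.17, beside -0.23, 0.11 and 0.21 over all tested microRNAs. Every rise belonged to the cluster of miR-182, miR-96 and miR-183, known from sensory cells and often raised in carcinomas, which lies 572 to 575 kb before Mir335 and on the opposite strand.

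Within that cluster, miR-182-5p was very abundant and had a clear separation. Its values ran from 14.33 to 15.14 in CHR, from 16.15 to 17.37 in papillomas and from 15.69 to 16.99 in carcinomas, so that every lesion was above every CHR sample. The rise was 1.76 in papillomas (SE 0.26, adjusted p = 0.000292 in limma) and 1.59 in carcinomas (SE 0.29, adjusted p = 0.000747 in limma). In papillomas it was 0.56 and did not pass once each library was centred on its median (adjusted p = 0.462 in limma, with 0.000131 as the lowest over 15 settings), while in carcinomas it passed in all 15. miR-183-5p rose by 1.08 in PAP (limma adjusted p = 0.0441), but differed by -0.12 with the centred libraries (limma adjusted p = 0.896) and passed in 5 of the 15 settings. For miR-183-3p, the rise in PAP of 1.93 (limma adjusted p = 0.0356) did not pass with the mice as a replicate block (adjusted p = 0.0975 in limma) and likewise passed in 5 of 15. miR-96-5p, near the lowest value in CHR and PAP, rose by 1.03 in cuSCC against CHR (limma adjusted p = 0.0296) and by 1.10 against PAP (limma adjusted p = 0.0422), the latter not with the block (limma adjusted p = 0.0735). With undetected values at the limits of their libraries, its difference from CHR was 0.28 (adjusted p = 0.6247 in limma), and that from PAP turned to -0.96 (adjusted p = 0.166 in limma). These rises passed in 5 and 2 of the 12 settings that could be fitted, and with the 100 ppm minimum it did not differ. On the other side of Mir335, 321 kb after it, miR-29a-3p did not pass in any comparison as tested and differed by -0.06 in cuSCC against CHR (standard error 0.30, limma adjusted p = 0.885). Centring moves all microRNAs of a comparison by the same amount, here -1.19 (PAP minus CHR) and 1.67 (cuSCC minus PAP). With libraries centred, miR-29a-3p was lower in PAP than in CHR, at -1.79 (limma adjusted p = 0.0414), and higher in cuSCC than in PAP, at 2.21 (limma adjusted p = 0.0159). With GC trends removed it was also lower in PAP than in CHR, at -0.84 (limma adjusted p = 0.0382).

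**Figure D4:**
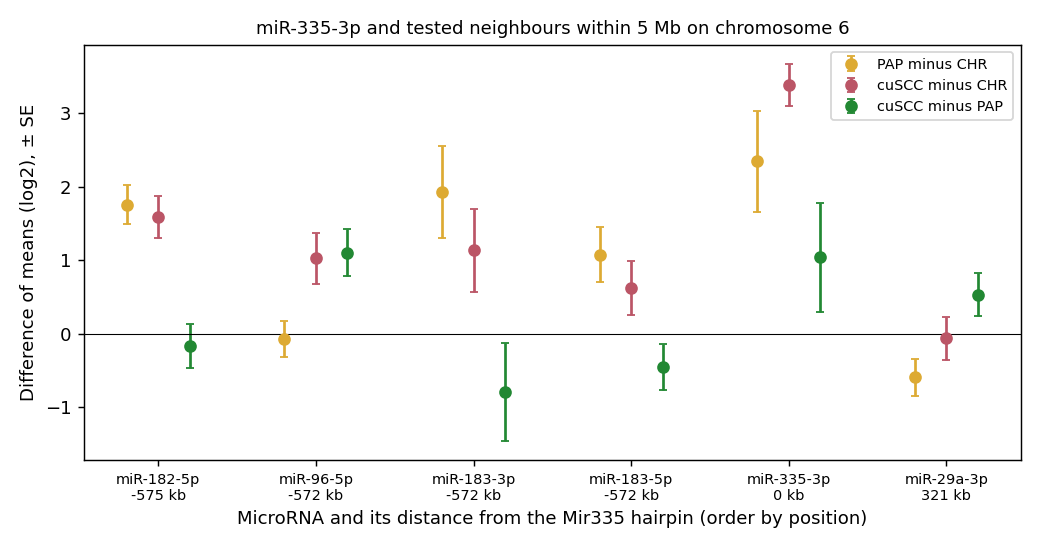
Differences of mean levels (log2, ± standard error, 6 libraries a type) for miR-335-3p and the 5 tested arms within 5 Mb on chromosome 6, in order of position, with the distance from Mir335 in kb. The points of miR-335-3p are a description, as it was chosen for its levels. miR-182-5p is at 1.76 and 1.59 above CHR in PAP and cuSCC, and miR-29a-3p is at -0.06 in cuSCC.

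Because Mest is imprinted, microRNAs of other imprinted loci were listed too. The largest such locus, Dlk1-Dio3, whose microRNAs come from the maternal chromosome, had 111 entries, of which 18 were tested and 69 were never detected. In PAP against CHR, 0 of the 18 passed in limma, beside 32.4% of all tested microRNAs, 1 had an unadjusted p under 0.05, miR-667-3p (-0.78, limma adjusted p = 0.0786), and 2 were lower with libraries centred. In cuSCC against CHR, 3 rose and 1 fell, where 20.1% and 22.2% of all tested microRNAs did so, and their median difference was 0.48 beside 0.11 for all. miR-434-5p rose by 2.31 (standard error 0.69, limma adjusted p = 0.0167), from a median of 4.07 in CHR to 7.14 in cuSCC, but by 0.52 with the 100 ppm minimum (limma adjusted p = 0.119). miR-411-5p rose by 1.74 (standard error 0.52, limma adjusted p = 0.0157) and miR-410-3p by 1.47 (limma adjusted p = 0.0365), and the latter did not pass with GC trends removed, at 0.68 (limma adjusted p = 0.335). The rises of miR-434-5p and miR-411-5p passed in 11 of 15 settings each and that of miR-410-3p in 8, and none of the 3 passed without mouse 2, 3 or 7. miR-667-3p fell by 0.91 on the log2 scale (limma adjusted p = 0.027) but passed in 5 of 12 settings. It did not pass with the replicate block (limma adjusted p = 0.0529), differed by -0.43 with libraries centred (limma adjusted p = 0.653) and by 0.02 with GC trends removed (limma adjusted p = 0.978). Between cuSCC and PAP, 16 of the 18 were higher in cuSCC, and their median difference was 0.97 beside 0.21 for all. Of the 18, 1 passed, beside 11.6% of all, miR-134-5p at 1.59 (limma adjusted p = 0.041). With undetected values at the limits of their libraries it turned to -0.13 (limma adjusted p = 0.848), with the 100 ppm minimum it did not differ, and the rise passed in 5 of 14 settings.

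The Sfmbt2 cluster, expressed from the paternal chromosome like Mest, had 4 tested arms of 51 entries. The arms miR-669a-3p and miR-669o-3p, which had the same values and may hold the same reads, averaged 6.36 in CHR and 6.40 in cuSCC and were undetected in every papilloma. They fell by 3.04 in PAP (limma adjusted p = 2.6e-05) and were higher in cuSCC than in PAP by 3.08 (limma adjusted p = 0.0206), but neither passed with undetected values at the limits of their libraries, where the differences were -0.88 and 1.11. miR-335-3p, in contrast, was detected in 1 of 6 CHR and 5 of 6 PAP samples. At the other imprinted loci listed, 2 of 10 entries were tested and passed in 0 comparisons in limma, although miR-184-3p had an unadjusted p of 0.0298 in PAP against CHR (-1.24, limma adjusted p = 0.080).

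miR-335 was first linked to metastasis together with miR-126 and miR-206, both lost with it in metastatic breast cancer cells. Here 3 of the 4 arms of miR-126 and miR-206 were tested. In cuSCC, miR-126-3p rose by 1.40 against CHR (limma adjusted p = 0.00493) and by 1.59 against PAP (limma adjusted p = 0.0319, and 0.0566 with the replicate block). miR-126-5p rose by 1.74 and 2.84 in the same comparisons (limma adjusted p = 0.0132 and 0.0269). Against CHR these rises passed in 14 and 12 of 14 settings, and against PAP in 6 and 8. miR-206-3p, a skeletal muscle microRNA, was at 6.54 ± 0.90 (SD, n = 6) in CHR, undetected in all papillomas and at 5.94 ± 1.76 in cuSCC. The PAP libraries of mice 7 and 10 reached no lower than 6.72 and 6.83, so its CHR average could not have been seen there. The 5p arm, the one first called miR-335, was detected in 2 of 18 libraries. Only the 3p arm, with another seed, could therefore be set beside miR-126, as a description. miR-335-3p and the miR-126 arms were each highest on average in cuSCC. In PAP, 5 of 6 papillomas were above every CHR sample for miR-335-3p, which was chosen for its levels. The miR-126 arms differed from CHR there by -0.19 and -1.10, and neither passed (limma adjusted p = 0.691 and 0.197).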

How the data were processed

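Small RNA of 18 mouse skin samples was sequenced. Per the study's methods, the authors removed adapter sequence, short reads and reads with homopolymer ends, aligned the remaining reads to miRBase using BLAST, and gave abundance in ppm of usable reads. The deposited table is on the log2 scale, and its quantile normalization and lowest value were inferred from the numbers. Human samples were not analysed here. Samples with the same number come from 1 mouse and are paired. Their deviations from group means correlated at r = 0.025 (PAP and CHR), -0.0676 (cuSCC and CHR) and 0.0582 (cuSCC and PAP) on average, over 0.1 in 2, 1 and 2 of 6 mice.

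The members of miR-335 and all lists were chosen with earlier results of these data known. An entry above the lowest value of the table in at least 6 libraries was tested (293 entries) with limma 3.58.1 in R 4.3.3, two-sided, on the 12 libraries of each pair of types without a block, with Benjamini-Hochberg adjustment over all 293. The study's methods required a fold change of 1.5, not required here, and do not say whether mouse samples were compared as pairs. For miR-335, means, SDs and differences were computed in Python 3.11.15, and SEs are of the difference of means. The limma step was tested on simulated data. Named microRNAs are both arms, the 5 most like each arm over all libraries and after subtracting type means, and the chromosome 6 and imprinted microRNAs that passed. miR-29a-3p, miR-184-3p, miR-6240, miR-1983, miR-98-5p, miR-421-3p, the miR-126 and miR-206 arms and single markers were named after their values were seen. Sequences come from RefSeq on GRCm38.p6, and the gene model of Mest from the GENCODE annotation of GRCm38. The labels name mm10, which is the same assembly. RNAfold 2.7.2 was used for the hairpin. Alternatives were a minimum of 100 ppm, undetected values placed at the limit of their library (its lowest detected value), centring of libraries, other detection filters, a fit on all types, a replicate block for mouse, and leaving out each mouse. Leaving out libraries that reached no lower than 50 ppm and removing each library's departure from the mean GC trend were added after seeing the data.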

Additional observations from a re-analysis of the deposited data

Results flagged for a closer look

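In 2 of the 6 groups of 6 samples formed by an arm and a sample type, 1 sample stood far from the others, by a gap to its nearest neighbour relative to the range of the group (above Dixon's 95% limit). Chance alone gives such a gap in about 1 of 20 groups, and in groups where nearly all samples sit at the lowest value any detection does so. The cuSCC of mouse 3 held miR-335-5p at 4.70, with the next sample at 3.40 and a gap of 0.947 of the range. The CHR of mouse 10 held miR-335-3p at 3.46, with the other 5 samples undetected, so that the gap was the whole range. That library had the lowest reach among CHR, 3.39, and the most detected entries, 328.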

How the results depend on the processing

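With miR-335-3p chosen for its levels and detected in 1 of 6 CHR samples, its differences from CHR could hardly turn negative in most settings. As a description, the difference of miR-335-3p of each lesion type from CHR was above 0 under every setting run. With values under 100 ppm raised to 100 ppm, it was 0.24 for PAP minus CHR and 0.35 for cuSCC minus CHR, and the numbers of microRNAs called in limma became 57 (PAP against CHR), 80 (cuSCC against CHR) and 2 (cuSCC against PAP), from 95, 124 and 34. With undetected values placed at the limit of their library, its lowest detected value, miR-335-3p differed by 2.61 between cuSCC and CHR, miR-335-5p by 1.37 (PAP minus CHR) and by -1.51 (cuSCC minus PAP), and 80 were called for cuSCC against PAP, 18 of them higher. Where an arm is undetected these are differences of limits only. The median used for centring was taken over detected entries only, and so depends on how many were detected. Their number had a median of 281.5 in CHR, 206.5 in PAP and 301.5 in cuSCC libraries. Centring of libraries shifted every difference by -1.19 (PAP minus CHR), 0.48 (cuSCC minus CHR) and 1.67 (cuSCC minus PAP). miR-335-3p then differed by 1.15 (PAP minus CHR) and 2.71 (cuSCC minus PAP), and miR-335-5p by -1.19, 0.72 and 1.92 in the 3 comparisons. It gave 7 higher of 92 calls for PAP against CHR, 46 of 64 for cuSCC against CHR and 163 of 163 for cuSCC against PAP, compared with 41 of 95, 59 of 124 and 27 of 34. With GC trends removed, miR-335-3p differed by 2.49 (cuSCC minus CHR), and 9 were called for cuSCC against PAP on 241 entries. That comparison gave 4 calls without the libraries that reached no lower than 50 ppm, 2 with all entries detected in at least 1 library and 21 with those in at least 12.

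With 1 mouse left out, miR-335-3p differed by 1.96 to 2.82 (PAP minus CHR), 3.20 to 3.55 (cuSCC minus CHR) and 0.46 to 1.36 (cuSCC minus PAP), and miR-335-5p by 0 to 0 (PAP minus CHR) and by 0.01 to 0.29 in the other comparisons, where mouse 3 gave the lowest. Calls ranged from 57 to 81, 77 to 127 and 1 to 58. For PAP against CHR, 57 were called without mouse 3 and 61 without mouse 7, and for cuSCC against CHR 77 without mouse 3. For cuSCC against PAP, 6 were called without mouse 2, 1 without mouse 3, 7 or 8, 9 without mouse 9 and 58 without mouse 10. Pairing the samples through a replicate block for mouse gave 77, 110 and 24 calls. Apart from the calls named beside their results, the block changed those of miR-199a-5p, miR-199b-5p, miR-200b-3p, miR-200c-3p, miR-429-3p and miR-381-3p within the lists, each in 1 comparison. The causes were not tested. Depth is unknown, and the reach of each library limits what can be said of miR-335-5p.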
